A study of Mus musculus with 4 samples.

Results

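Transcripts of 8 NLRP genes, Nlrp14, Nlrp4a, Nlrp4b, Nlrp4c, Nlrp4e, Nlrp9a, Nlrp9b and Nlrp9c, were analysed in mouse oocytes with and without γ-irradiation. They were chosen by name as the oocyte NLRP paralogs that lie outside the subcortical maternal complex, and all 8 were found among the 17374 genes of the deposited table by their gene IDs. Germinal vesicle stage oocytes, which are arrested in meiotic prophase, came from F1 hybrid females (C57/Bl6/DBA2J) that had received no hormone priming, on postnatal day 16. Both conditions were stripped of cumulus cells, kept in culture with milrinone, a phosphodiesterase inhibitor that holds the meiotic arrest, and freed of the zona pellucida before lysis. The control oocytes received no irradiation and the irradiated oocytes received 5 Gy of γ-rays from a Cesium-137 source and were analysed 24 h later, with 2 libraries of pooled oocytes per condition from independent experiments. The paper gives equal numbers of control and irradiated oocytes. Since each library is RNA of pooled cells and its values are relative to the whole library, the amount of RNA per oocyte cannot be read from them.

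NLRP proteins typically carry a pyrin domain, a nucleotide-binding NACHT domain and leucine-rich repeats, although not every member has all of these. Some family members, such as Nlrp3 and Nlrp1b, form inflammasomes in immune cells, whereas a large group of mouse genes, expanded by gene duplication, is transcribed mainly in oocytes and supplies the early embryo. Nlrp5 (Mater), Nlrp2 and Nlrp4f belong to the subcortical maternal complex, a protein assembly at the oocyte cortex that is required for the first cleavages. Nlrp14 has been linked to Uhrf1, an adaptor of DNA methylation maintenance, and to calcium homeostasis through the mitochondrial exchanger Slc8b1, and Nlrp9b senses viral RNA with the helicase Dhx9 in the gut. Human NLRP4, the relative of the mouse Nlrp4 genes, has been linked to degradation of the kinase Tbk1 through Dtx4 and to the autophagy protein Becn1.

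All 8 genes lay on chromosome 7 of GRCm38. Nlrp4c was at chr7:6045161-6105149, Nlrp4b at chr7:10687793-10730168, Nlrp9b at chr7:19991393-20062942, Nlrp4e at chr7:23301192-23362277, Nlrp9c at chr7:26364691-26403700, Nlrp4a at chr7:26435113-26476142, Nlrp9a at chr7:26535023-26574148 and Nlrp14 at chr7:107113455-107198103. Nlrp9c, Nlrp4a and Nlrp9a were neighbours in this set, separated by 31.4 and 58.9 kb, and Nlrp9c alone lay on the minus strand. Nlrp14 stood 80.5 Mb from Nlrp9a, the nearest of the others. Coding lengths were close, from 2589 bases in Nlrp4b to 3012 bases in Nlrp9a and Nlrp9c.

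The coding sequences fell into groups that followed the gene names. Over 28 pairs the nucleotide identity in global alignments ranged from 54.2 to 93.6%, with a median of 58.2%. Nlrp4c and Nlrp4e were 93.6% identical, Nlrp4a was 86.5% identical to Nlrp4c and 85.9% to Nlrp4e, and Nlrp4b was 70.7 to 71.2% identical to these 3. The Nlrp9 genes were 83.2 to 87.6% identical to each other. Nlrp14 was 54.2 to 56.4% identical to the other members. Nlrp4f, the maternal complex gene on chromosome 13, was 80.5 to 80.9% identical to Nlrp4a, Nlrp4c and Nlrp4e, closer to them than Nlrp4b was.

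This closeness bears on the counts, because reads that match several genes have to be shared out among them. The longest run shared by the coding sequences of Nlrp4c and Nlrp4e had 120 bases, from coding base 121 to 240 in both, and it is shown beside the matching stretches of Nlrp4a, with 13 differing bases, and Nlrp4b, with 21, aligned without gaps. The sequences are from the GENCODE M21 transcripts of GRCm38, 5′ to 3′, and capitals mark bases that differ from Nlrp4c.

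Nlrp4c: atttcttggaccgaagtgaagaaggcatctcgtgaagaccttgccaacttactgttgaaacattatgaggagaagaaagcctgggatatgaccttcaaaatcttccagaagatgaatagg
Nlrp4e: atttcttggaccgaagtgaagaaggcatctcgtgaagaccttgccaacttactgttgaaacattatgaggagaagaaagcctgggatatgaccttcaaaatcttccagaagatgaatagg
Nlrp4a: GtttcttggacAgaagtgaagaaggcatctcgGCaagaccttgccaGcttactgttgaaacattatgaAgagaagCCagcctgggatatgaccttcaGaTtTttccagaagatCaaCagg
Nlrp4b: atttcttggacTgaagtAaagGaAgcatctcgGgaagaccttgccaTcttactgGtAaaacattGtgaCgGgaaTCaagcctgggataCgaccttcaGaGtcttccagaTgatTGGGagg

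With reads of 100 bases, 11.5% of the 100-base words of the Nlrp4e transcript also occurred in transcripts of other genes. That share was 1.36% in Nlrp9b, 1.12% in Nlrp4c, 0.927% in Nlrp9a and 0.449% in Nlrp9c, and it was 0% in Nlrp14, Nlrp4a and Nlrp4b. The counts of Nlrp4e, and to a smaller degree those of the other genes with shared words, are therefore uncertain. The transcripts examined of Nlrp14, Nlrp4a and Nlrp4b have no such word at this length. A single transcript per gene was examined, that with the longest coding sequence. For Nlrp4a it had 3215 bases and for Nlrp4c 3058, against 4259 and 3615 in the transcripts paired with their RefSeq entries NM_172896 and NM_031389. With words of 50 bases the share was 36.9% in Nlrp4e, 14.1% in Nlrp4c and 3.54% in Nlrp4a. It was 6.54% in Nlrp9a, 6.22% in Nlrp9b, 4.99% in Nlrp9c and 0% in Nlrp14 and Nlrp4b. The genes that held 100-base words of Nlrp4e were Nlrp4c, Gm16443, Gm4541, Gm8486, Gm8685 and Gm8728. Nlrp4e had 379 such words, and the Nlrp4c transcript examined had 33 that occurred in other genes. How many words of Nlrp4e each of these genes held was not counted. The sequences searched are GENCODE transcripts, and whether the authors' RefSeq transcripts included the Gm genes was not examined.

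Within 100 bases upstream of the start sites, 5 members held CCAAT boxes, the motif that the activator NF-Y binds. RefSeq windows of GRCm38.p6 were used for 9 listed starts of 7 members, all except Nlrp14. The letters CCAAT, searched on both strands, occurred within 100 bases before the start in 6 of 9 member windows and in 18.9% of the 32851 windows of all genes. There were 3 matches each at Nlrp4c, Nlrp9a and Nlrp9c, as at 0.457% of all starts (3 or more matches). The windows of Nlrp9b and Nlrp4e held none. The Nlrp9b window, chr7:20007923-20008022, lies inside the gene, which begins at chr7:19991393, and the bases before that beginning were not searched. The windows with the most matches of each gene are shown 5′ to 3′ on the gene's strand, ending at the last base before the start, with the matches in capitals.

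Nlrp4a (chr7:26435514-26435613, plus strand): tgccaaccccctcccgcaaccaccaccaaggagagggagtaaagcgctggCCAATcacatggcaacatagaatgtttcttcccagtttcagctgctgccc
Nlrp4b (chr7:10687693-10687792, plus strand): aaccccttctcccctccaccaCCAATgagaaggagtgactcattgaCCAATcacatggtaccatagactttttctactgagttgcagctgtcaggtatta
Nlrp4c (chr7:6045061-6045160, plus strand): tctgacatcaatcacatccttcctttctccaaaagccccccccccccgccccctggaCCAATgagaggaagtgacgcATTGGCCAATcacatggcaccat
Nlrp9a (chr7:26534923-26535022, plus strand): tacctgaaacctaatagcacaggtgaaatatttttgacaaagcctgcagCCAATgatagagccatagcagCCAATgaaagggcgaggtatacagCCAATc
Nlrp9c (chr7:26403701-26403800, minus strand): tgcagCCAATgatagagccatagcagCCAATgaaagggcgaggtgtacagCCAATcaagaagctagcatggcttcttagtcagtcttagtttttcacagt

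Nlrp9a and Nlrp9c shared an unbroken run of 106 bases, which began 118 bases before the start of Nlrp9a and 162 bases before that of Nlrp9c. The windows of Nlrp4a, Nlrp4b and Nlrp4c shared the 12 bases ccaatcacatgg around the match nearest the start, in which the last 7 bases hold an E-box (CANNTG). Duplicated genes inherit such runs together, so these windows are not independent of each other. In the full 250 bases upstream, E-boxes occurred in 8 of 9 member windows and in 66.2% of all windows. The NOBOX element, searched as TAATTN, occurred in 2 of 9 member windows and in 24.9% of all windows. The window of Nlrp4a shown belongs to its downstream start, and the window before its upstream start, at which the transcript NM_172896.3 described below begins, held no CCAAT within 100 bases.

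The libraries were of similar depth, with 33349466 to 37232818 estimated counts each, but irradiated library 2 stood apart from the other 3. Spearman's correlation over genes was 0.983 to 0.986 between irradiated library 2 and the others and 0.994 to 0.995 among the others, and its TMM factor was 1.19 against 0.923 to 0.975. Oocyte markers were present throughout, with all 11 listed genes above 3 counts in every library, although in irradiated library 2 Zp2 was at 1937 TPM against 4115 to 4452 TPM and Nobox at 1215 TPM against 398 to 468 TPM in the others. Of 11 markers of granulosa and cumulus cells, 8 were listed, all but Amh, Foxl2 and Ptx3, and 4 exceeded 3 counts in every library. The 8 listed summed to 16.8, 19.1, 16.7 and 22.3 TPM. They ran from Has2 at 0 or 1 count to Cyp19a1 at 528 to 543 and Nr5a2 at 382 to 702 counts. Of 8 leukocyte markers 4 were listed, all but Ptprc, Adgre1, Lyz2 and Aif1, and these summed to 1.74, 1.64, 2.01 and 3.53 TPM. Of 5 markers of endothelium, theca and stroma 3 were listed, all but Cdh5 and Col1a1, and these summed to 3.94, 4.99, 4.07 and 5.95 TPM. On these lists Tyrobp and Cyp17a1 were at 0 or 1 count, Cd68 at 41 to 88 and Pecam1 at 314 to 425 counts. The 3 sums are in the order control 1, control 2, irradiated 1 and irradiated 2, and each was highest in irradiated library 2. The part of other cells in the results was not tested.

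Nlrp14 was by far the most abundant member. In TPM, a share of each library's transcripts that corrects for length, its gene total was 5714 and 5650 in the controls, 6230 in irradiated library 1 and 3108 in irradiated library 2. It ranked 25th among all genes in the first 3 of these libraries and 39th in irradiated library 2, and it made up 1.3, 1.28, 1.37 and 0.656% of all counts. It carried 69.1 to 79.7% of the summed TPM of the 8 genes, which was 7331, 7319, 7812 and 4502 TPM. On the same scale Nlrp5, the maternal complex gene, was at 1953 to 2258 TPM, Nlrp4f at 427 to 784 TPM and Nlrp2 at 123 to 186 TPM.

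The Nlrp9 genes followed at similar levels. Nlrp9c was at 396, 399, 359 and 389 TPM in control 1, control 2, irradiated 1 and irradiated 2. Nlrp9b was at 381, 408, 389 and 335 TPM in the same order, so the ranges of these neighbours overlapped and each was the higher one in 2 of 4 libraries. Nlrp9a was at 286, 304, 298 and 313 TPM, below both in all 4 libraries.

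The Nlrp4 genes spread more widely. Nlrp4b was at 303, 292, 286 and 154 TPM, which overlapped with Nlrp9a above it and with Nlrp4a below it. Nlrp4a was at 212, 222, 210 and 166 TPM, below Nlrp4b in every library except irradiated library 2. Nlrp4e, at 29.8, 33.2, 29.6 and 26.9 TPM, and Nlrp4c, at 9.5, 11.8, 10.6 and 9.18 TPM, were separate from their neighbours in the order in all libraries. Nlrp14 exceeded Nlrp4c by 339 to 601 times within a library and Nlrp9c by 7.99 to 17.4 times.

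**Figure D1:**
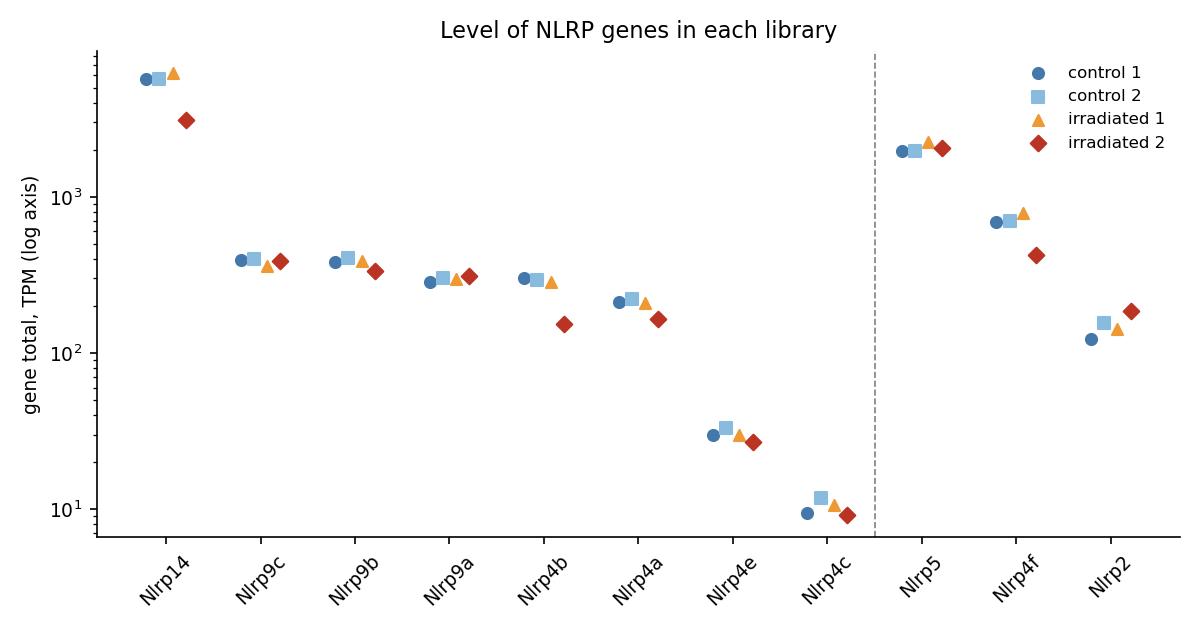
Gene totals in TPM (log axis) of the 8 NLRP genes, ordered by mean level, and right of the dashed line the 3 NLRP genes of the maternal complex, with 1 point per library. Nlrp14 lies at 3108 to 6230 TPM, above all others, and Nlrp4c lies lowest at 9.18 to 11.8 TPM.

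The comparison of irradiated with control oocytes asked whether γ-irradiation changed these maternal transcripts after 24 h. Estimated counts were summed over the transcripts of each gene, scaled by TMM factors and tested with edgeR's quasi-likelihood test over 12569 genes. A call needed both an adjusted p under 0.05 and a log2 difference of more than 2 in either direction. None of the 8 members met both limits, as 1 gene did (0.00796% of those tested), and no member reached an unadjusted p under 0.05, as 744 genes (5.92%) did. The gene that met them was Fermt1, an integrin activator named here after its values were seen, with a log2 fold change of 4.29 and an adjusted p of 0.0428 by edgeR.

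Nlrp14 had 496552 and 461402 normalized counts in the control libraries, 516699 in irradiated library 1 and 194931 in irradiated library 2. Irradiated library 1 was the highest of the 4 and irradiated library 2 the lowest, at 108 and 40.7% of the control mean, so the irradiated values enclosed the controls. The log2 fold change was -0.43 (SE 0.522, 95% interval -1.66 to 0.81, adjusted p = 0.802 by edgeR). Leaving out irradiated library 2 gave 0.11, and leaving out irradiated library 1 gave -1.31. The sign for Nlrp14 thus depended on which irradiated library was kept.

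Nlrp4b had the most negative fold change of the 8. Its normalized counts were 26286 and 23837 in the controls, 23751 in irradiated library 1 and 9646 in irradiated library 2. Irradiated library 1 lay 0.36% below the lower control and irradiated library 2 was at 38.5% of the control mean. The log2 fold change was -0.59 (SE 0.397, 95% interval -1.53 to 0.35, adjusted p = 0.714 by edgeR). It became -0.077 when irradiated library 2 was left out and -1.39 when irradiated library 1 was left out.

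The other Nlrp4 genes had smaller differences. Nlrp4a had 18711 and 18179 normalized counts in the controls and 17980 and 11735 in the irradiated libraries, with a log2 fold change of -0.31 (SE 0.247, adjusted p = 0.734 by edgeR). Nlrp4e had 2582 and 2704 in the controls and 2466 and 1733 in the irradiated libraries, with a log2 fold change of -0.33 (SE 0.189, adjusted p = 0.708). Nlrp4c, the least abundant member, had 914 and 1071 in the controls and 976 and 637 in the irradiated libraries, with a log2 fold change of -0.30 (SE 0.215, adjusted p = 0.721). In all 3 genes irradiated library 1 was at 93.3 to 98.4% of the control mean and irradiated library 2 at 63.6 to 65.6%. The groups of Nlrp4c overlapped, and those of Nlrp4a and Nlrp4e did not, by gaps of 1.09 and 4.48% of the lower control.

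Nlrp9a and Nlrp9c differed least between the irradiated libraries, while Nlrp9b differed as Nlrp4a did. Nlrp9a had 24017 and 23991 normalized counts in the controls and 23885 and 19053 in the irradiated libraries, with a log2 fold change of -0.16 (SE 0.215, adjusted p = 0.816 by edgeR). Nlrp9b, the member known as a sensor of viral RNA, had 34362 and 34610 in the controls and 33374 and 21763 in the irradiated libraries, with a log2 fold change of -0.32 (SE 0.267, adjusted p = 0.735). Nlrp9c had 33684 and 31836 in the controls and 29070 and 23859 in the irradiated libraries, with a log2 fold change of -0.31 (SE 0.222, adjusted p = 0.724). Nlrp9c was the only member in which irradiated library 1 lay more than 5% below the lower control, at 8.69%. With irradiated library 2 left out its log2 fold change was -0.17, the most negative of the 8 in that setting.

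**Figure D2:**
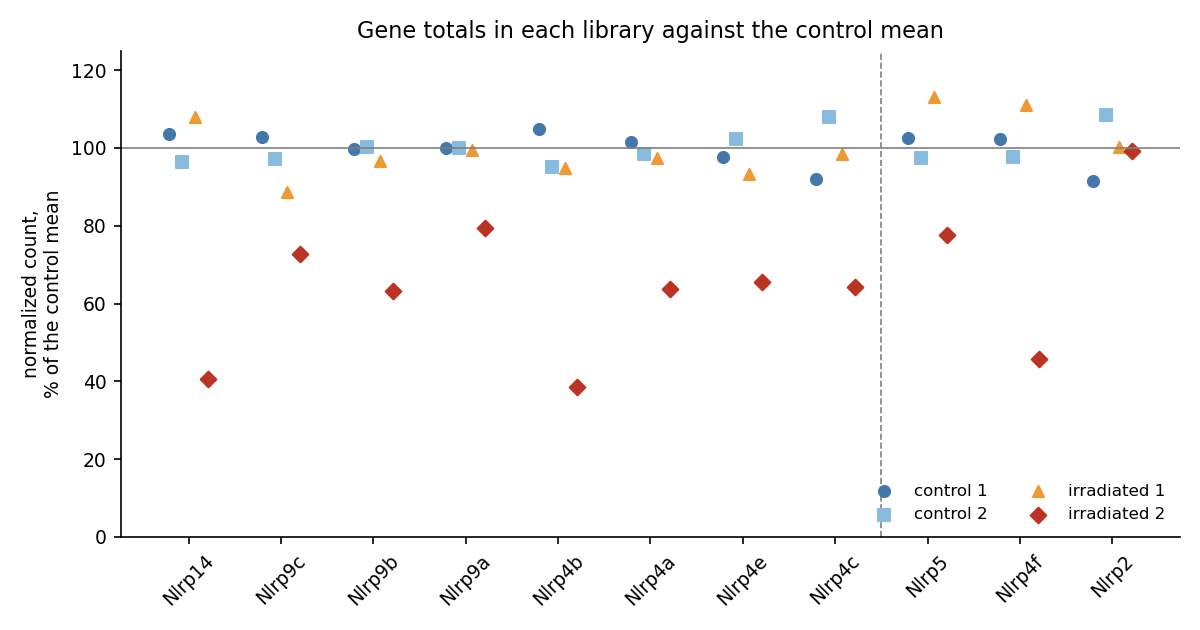
Normalized count of each gene in each library as a percentage of the control mean, with the 8 members left of the dashed line and the NLRP genes of the maternal complex right of it. Irradiated library 1 lies at 88.7 to 108% for the members and irradiated library 2 at 38.5 to 79.4%, the lowest point in all 8.

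The log2 fold change was below 0 in 8 of 8 members, and it was below 0 in 48.6% of the genes tested. The groups did not overlap, with both irradiated libraries lower, in 6 of 8 members against 19.9% of all genes on normalized counts, and in 4 of 8 members against 5.88% of all genes on the TPM scale. The 95% intervals of all 8 included 0, and those of Nlrp14 and Nlrp4b reached beyond -1, so with 2 libraries per condition a log2 change of -1 was within the interval for both. The direction changed with scaling in Nlrp9a and with the library in Nlrp14, and in no other member. With library size alone 8 of 8 members were below 0 against 27.0% of all genes. With log2(TPM + 1) 7 of 8 were, against 19.7% (Nlrp9a was at 0.053). Without irradiated library 2 again 7 of 8 were, against 49.5% (Nlrp14 was at 0.11 and the others at -0.17 to -0.0065). Scaling by library size or TPM also moved the median of all genes to 0.17 and 0.14 on the log2 scale, from 0.01 with TMM. Relative to that median, the members were at -0.60 to -0.17 with TMM, -0.67 to -0.19 with library size and -0.64 to -0.09 with TPM.

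**Figure D3:**
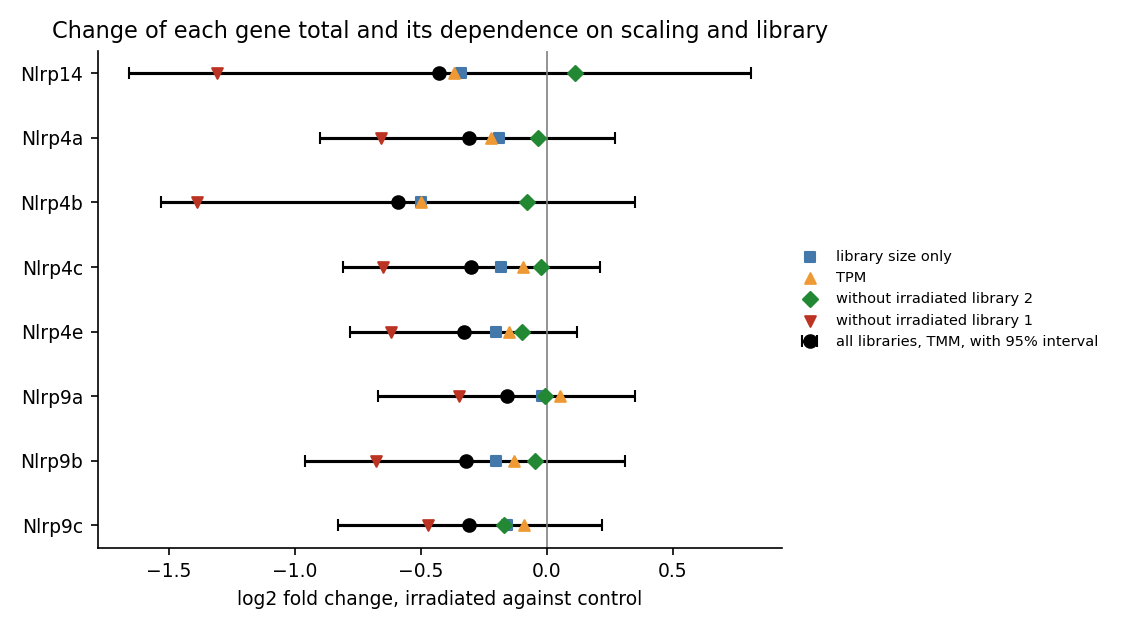
Log2 fold change of each gene total, irradiated against control, with the 95% interval of the edgeR fit over all 4 libraries (black) and the values with other scalings or with 1 irradiated library left out. All 8 intervals include 0, and the values without irradiated library 2 run from -0.17 to 0.11 while those without irradiated library 1 run from -1.39 to -0.35.

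The spread between the irradiated libraries was larger than that between the controls for every member. The share of all genes with this trait was not counted, and irradiated library 2 stood apart over the whole series, so it is not shown to be particular to the members. On normalized counts the log2 ratio of control 1 to control 2 ran from -0.23 in Nlrp4c to 0.14 in Nlrp4b. The log2 ratio of irradiated library 2 to irradiated library 1 was -1.41 for Nlrp14, -1.30 for Nlrp4b, -0.62 for Nlrp4a, Nlrp4c and Nlrp9b, -0.51 for Nlrp4e, -0.33 for Nlrp9a and -0.29 for Nlrp9c. Across all genes tested its median was 0.02.

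Abundant genes as a class were lower in irradiated library 2. The median of the same ratio was -0.60 over the 100 genes with the highest mean counts, -0.43 over the next 400 and 0.12 over the genes from rank 6001 on. Nlrp14 was 8th by mean count, and 8 of the 100 most abundant genes, itself included, were as low. Nlrp4b was 221st, and 9 of the 201 genes within 100 ranks of it, itself included, were as low. Nlrp4c was 3600th, and 10 of its 201 were as low, where the median of these genes was 0.00. Nlrp9a and Nlrp9c were less low than most genes of their abundance, with 133 and 152 of 201 genes as low or lower and medians of -0.49 and -0.56. These are descriptions of 2 libraries, with no test.

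**Figure D4:**
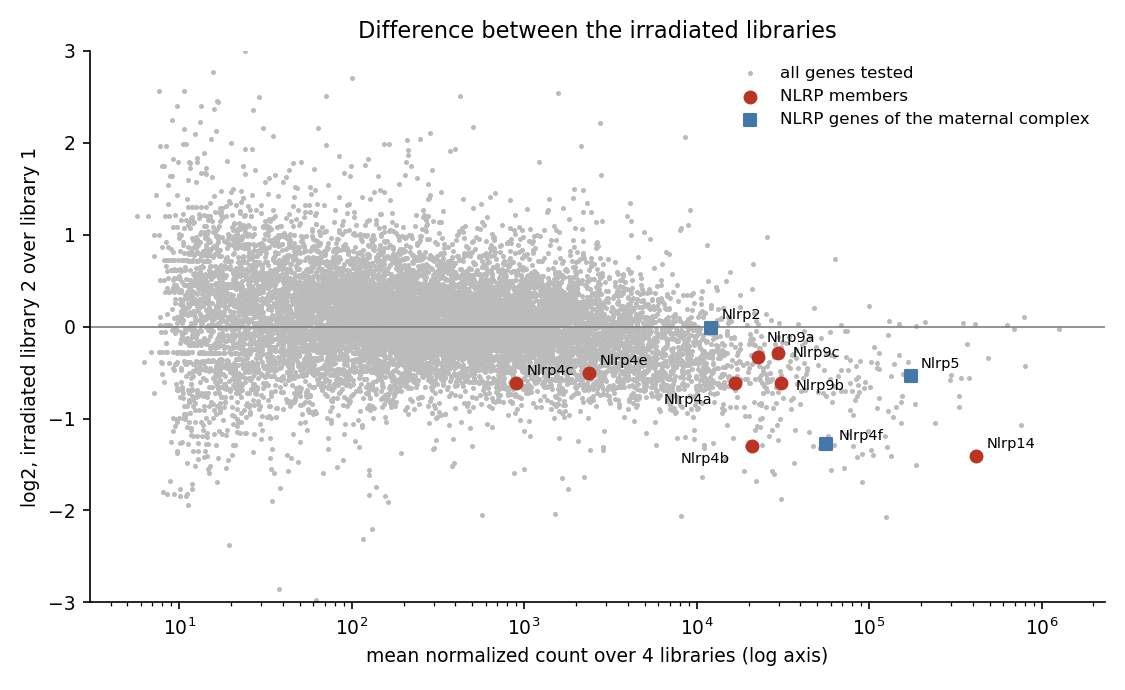
Log2 ratio of normalized counts, irradiated library 2 over irradiated library 1, against the mean normalized count over 4 libraries (log axis), with 1 point per gene tested (ratios beyond 3 in size are not drawn). Nlrp14 at -1.41 and Nlrp4b at -1.30 lie below most genes of their abundance, and Nlrp9a at -0.33 and Nlrp9c at -0.29 lie above most.

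Ratios within a library do not depend on the scaling between libraries, and they set irradiated library 2 apart as well. The TPM of Nlrp14 over the sum of the Nlrp9 genes was 5.37 and 5.09 in the controls, 5.96 in irradiated library 1 and 3.0 in irradiated library 2. The sum of the 4 Nlrp4 genes over that of the Nlrp9 genes was 0.521, 0.504, 0.514 and 0.343 in the same order. Nlrp4b over Nlrp4a was 1.43, 1.32, 1.36 and 0.928, so the order of these 2 genes was turned in irradiated library 2 only. Each of these ratios was lowest in irradiated library 2. The Nlrp9 sum itself was 1063, 1110, 1045 and 1037 TPM.

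The maternal complex NLRP genes are given for comparison. Nlrp4f had 64772 and 61720 normalized counts in the controls and 70190 and 28863 in the irradiated libraries, again with irradiated library 1 highest and irradiated library 2 lowest, and a log2 fold change of -0.35 (adjusted p = 0.796 by edgeR). Nlrp5 had 182645 and 173450 in the controls and 201401 and 138300 in the irradiated libraries, with a log2 fold change of -0.07 (adjusted p = 0.950). Nlrp2 had 11149 and 13229 in the controls and 12209 and 12102 in the irradiated libraries, so irradiated library 2 lay between the controls. The ratio of Nlrp14 to Nlrp5 in TPM was 2.93 and 2.86 in the controls and 2.76 and 1.52 in the irradiated libraries.

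The 8 genes had 24 listed transcripts, 12 of them known and 12 predicted RefSeq models, and the estimated counts of a gene are divided among these by the authors' quantification. Of 22 transcripts tested with edgeR, 20 had a log2 fold change below 0, as 49.8% of 26645 transcripts did, and 2 had an unadjusted p under 0.05, as 4.9% of all did. Both limits were met by 0 transcripts in the table (0.0%) with edgeR, of which 1306 had an unadjusted p under 0.05, and by 248 with DESeq2, 0 of them from the members. Among the members' transcripts the lowest adjusted p by edgeR was 0.777. Nlrp14 was read almost wholly from NM_001002894.2, which held 100% of its counts to 3 digits in all libraries, and Nlrp4c had 1 listed transcript, NM_031389.2.

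Nlrp4a was the member whose abundant transcripts differed in direction. NM_001362156.1 had 1820 and 1276 estimated counts in the controls and 2969 and 4340 in the irradiated libraries, which was 9.97 and 7.61% of the counts of the gene in the controls and 17.6 and 31.8% in the irradiated libraries. Its log2 fold change was 1.10 (SE 0.209, unadjusted p = 0.00741 and adjusted p = 0.777 by edgeR). With DESeq2 its adjusted p was 0.00431, and 258 transcripts (0.897%) had an adjusted p under 0.05 by that tool. The adjusted p of this transcript thus depended on the tool, and its log2 fold change stayed under the limit of 2. The predicted XM_011250567.1 had shares of 29 and 30.8% in the controls and 26.4 and 15.3% in the irradiated libraries, and the leading NM_172896.3 had 60.8, 61.5, 55.4 and 52.6%. The shares of all 3 did not overlap between the conditions, as was the case for 13 of the 20 member transcripts tested in genes with several and for 33.8% of such transcripts over all genes. On the TPM scale the shares were 7.91, 5.97, 14.2 and 28.1% for NM_001362156.1 and 44.9, 46.9, 41.4 and 26.3% for XM_011250567.1, and those of NM_172896.3 were closer together, at 46.9, 46.9, 43.5 and 45.1%. The test of isoform usage gave Nlrp4a an unadjusted p of 0.0198, as 6.12% of 6323 genes had a p under 0.05, and an adjusted p of 0.477 by edgeR's Simes method, so the shift did not pass the test, which 16 genes (0.253%) did.

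The other genes with several transcripts had adjusted p = 1.0 in that test. In Nlrp4b, NM_001355151.1 held 33.4, 31.3, 39.1 and 36.8% of counts and NM_172481.2 the rest. In Nlrp4e, the predicted XM_030242760.1 had shares of 6.19% in both controls and 4.94 and 0.507% in the irradiated libraries, the last from 10 counts. In Nlrp9b, the predicted XM_006539938.2 had shares of 8.23, 8.91, 5.76 and 5.14% and a log2 fold change of -0.95 (unadjusted p = 0.0356, adjusted p = 0.880 by edgeR), and NM_194058.2 held 63.6 to 72.9%. Nlrp9a was split among 3 known transcripts, led by NM_001048220.2 with 46.6 to 51.2%, and Nlrp9c was led by NM_001042612.2 with 86.2 to 87.4%.

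**Figure D5:**
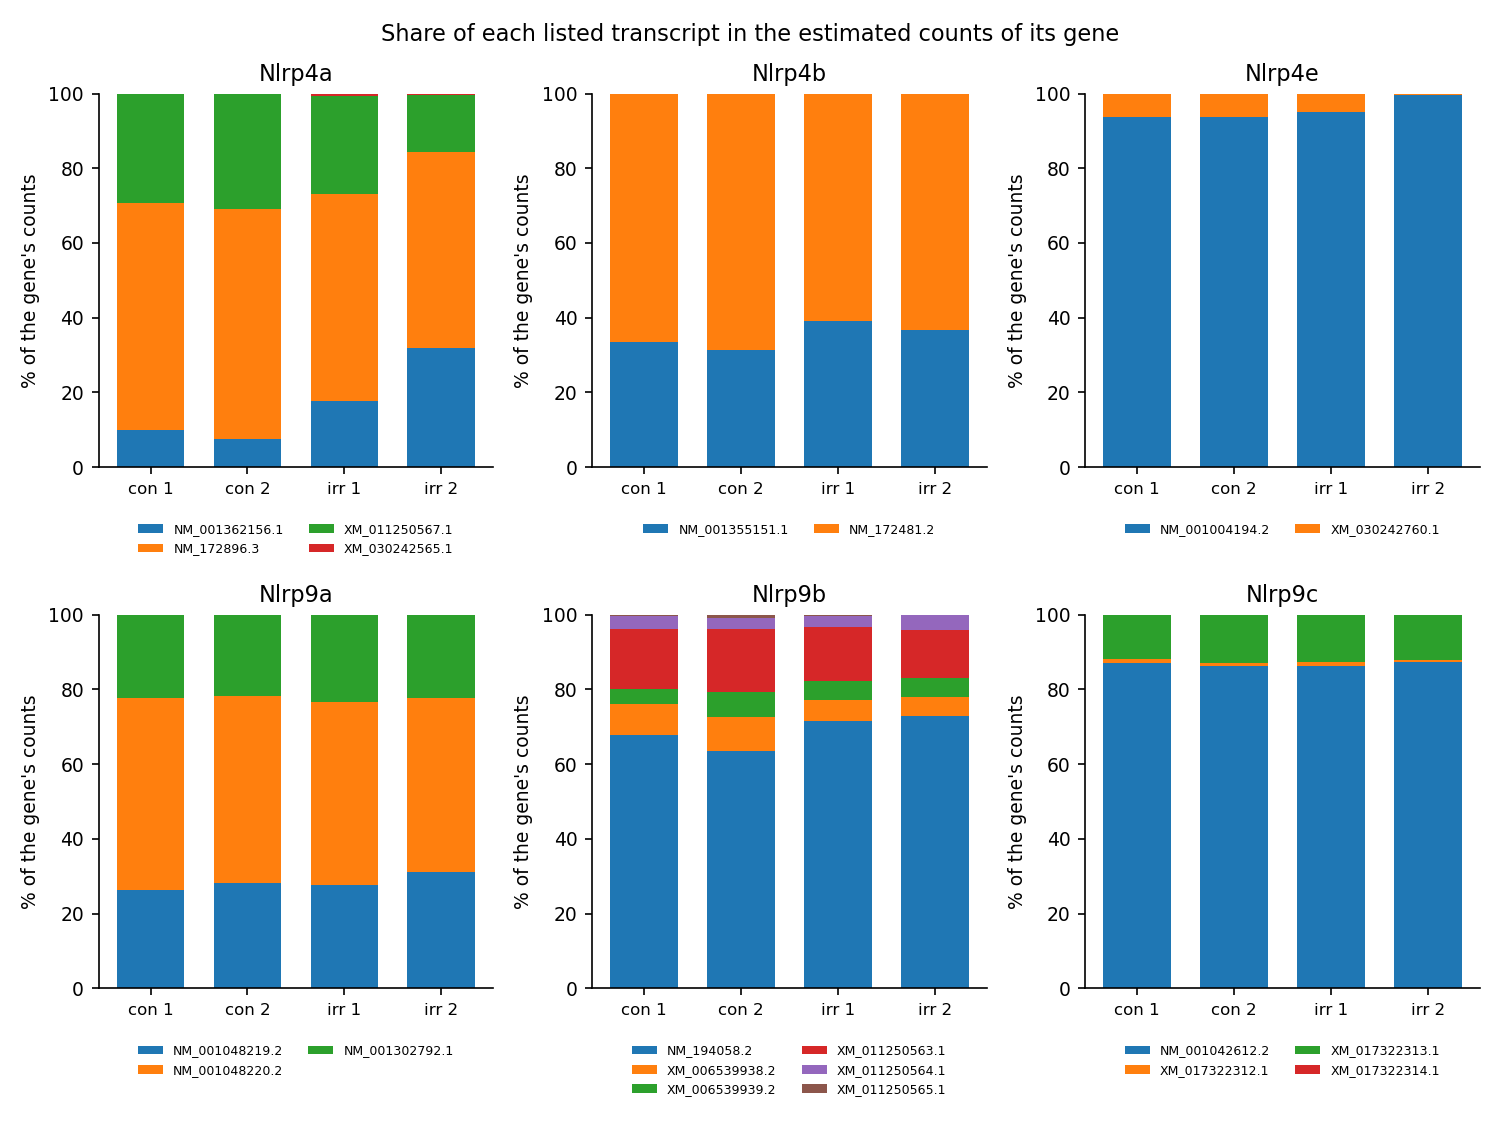
Share of each listed transcript in the estimated counts of its gene (percent) in control libraries 1 and 2 (con) and irradiated libraries 1 and 2 (irr), for the 6 genes with several transcripts of more than a trace. In Nlrp4a the blue NM_001362156.1 holds 17.6 and 31.8% in the irradiated libraries, and the shares of Nlrp9c lie at 86.2 to 87.4% for its leading transcript.

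Most of the other NLR genes listed were under 1 TPM in every library, and a few were well above it. Of 19 other NLR genes on a fixed list, 16 were listed and 6 passed the filter on low counts, and none of the 6 passed the test, with a median log2 fold change of -0.20 beside 0.01 over all genes. The inflammasome sensors Nlrp1a, Nlrp1b, Nlrp6 and Nlrp12 were at 0.01 to 0.07 TPM in every library, and the bacterial sensor Nod2 was at 0.36 to 0.87 TPM. Nlrp4g, a further Nlrp4 paralog, was at 159, 170, 167 and 116 TPM and had 8585, 8654, 8645 and 4550 normalized counts, lower in irradiated library 2 as Nlrp4a and Nlrp4b were. Nlrc3, a negative regulator of innate signalling, was at 34 to 37.5 TPM and Naip1, a sensor of bacterial secretion, at 5.55 to 6.12 TPM.

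Of 12 inflammasome and cytokine genes, 10 were listed, 4 passed the filter and none passed the test. The adaptor Pycard, which links NLRP proteins to caspase 1, was at 0.04, 0, 0 and 0 TPM, and Casp1 at 0.09 to 0.32 TPM. Ninj1, which ruptures the plasma membrane in lytic cell death, was the most abundant of this list at 440 to 526 TPM, with a log2 fold change of -0.16.

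Of the 7 reported partners of NLRP proteins, 4 passed the filter and none passed the test, with a median log2 fold change of -0.16. Uhrf1, the partner of Nlrp14, was at 97.8 and 95.1 TPM in the controls and 122 and 128 TPM in the irradiated libraries, and its normalized counts overlapped between the conditions, with a log2 fold change of 0.16. Slc8b1 had 6.15, 5.42, 5.32 and 4.31 normalized counts. Dhx9, the partner of Nlrp9b, had 211 and 195 normalized counts in the controls and 134 and 164 in the irradiated libraries, with a log2 fold change of -0.44 (SE 0.189, adjusted p = 0.708 by edgeR), and it was at 1.12 to 1.83 TPM. Tbk1 was at 7.11 to 8.94 TPM and Becn1 at 29.6 to 34.4 TPM, whereas Dtx4 and Sting1 were at 0 to 0.05 TPM and 0 to 0.02 TPM.

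The genes most like the leading members were sought over the 4 libraries by the root mean square difference of log2(TPM + 1). Nearest to Nlrp14 were Sap18b (0.269), Gdf9, the oocyte growth factor (0.276), and E330034G19Rik (0.297), each less low in irradiated library 2 than Nlrp14, as Gdf9 with 5918, 5582, 6980 and 4474 TPM. Nearest to Nlrp9c were Cox6b1 (0.0407), a subunit of cytochrome c oxidase, BC031181 (0.0455) and Cox6a1 (0.0481), another subunit of that enzyme. This measure weighs the level as much as the pattern over libraries.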

How the data were processed

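RNA-seq of germinal vesicle stage oocytes was analysed in 2 control and 2 irradiated libraries, grouped by the sample titles. The authors aligned paired-end reads of 100 bases to GRCm38 with Bowtie2, and the submitters' processing notes also name HISAT2 and RSEM. The authors deposited an estimated count per RefSeq transcript, not scaled for library size, and TPM values, scaled for length and to the same total in each library. The authors also deposited 4 columns of FPKM (scaled for length and depth) and 6 of averages, 10 columns that were not used. Counts and TPM were summed per gene ID, and 17323 of 17374 IDs matched a RefSeq symbol. Rounded sums went into edgeR 4.0.16 under R 4.3.3 (filterByExpr, minimum count of 10, TMM, glmQLFit and glmQLFTest, no block, Benjamini-Hochberg adjustment over all features). Intervals rest on 2 libraries per condition, and edgeR moderated the variance of each gene with that of the other genes. For isoform usage, edgeR's diffSpliceDGE was run. DESeq2 1.42.0, limma 3.58.1 and other settings were alternatives. The test scripts were tested on simulated data. Sequences came from GENCODE M21 and RefSeq, both of GRCm38, and were aligned with edlib.

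The members and gene lists were chosen with earlier results of these data known. Named were all 8 members, values of list genes that are maternal complex NLRP genes or reported partners, and the 3 genes nearest to each of the 2 most abundant members. Further list genes were picked for mention with their values in view.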

Additional observations from a re-analysis of the deposited data

How the results depend on the processing

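None of the 8 members passed both limits in any of 9 other settings over the 4 libraries (DESeq2, limma-voom, the exact test, other size factors, library size only, no filter, log2 of TPM with pseudocounts of 1 and 0.1, the replicate block), with adjusted p from 0.441 to 0.999. Of these 72 values, 70 kept their direction and 2 reversed, Nlrp9a at 0.053 with both TPM pseudocounts. Leaving out 1 library at a time gave log2 fold changes of -1.31 to 0.11 for Nlrp14, -0.66 to -0.036 for Nlrp4a, -1.39 to -0.077 for Nlrp4b, -0.65 to -0.023 for Nlrp4c, -0.62 to -0.10 for Nlrp4e, -0.35 to -0.0065 for Nlrp9a, -0.68 to -0.047 for Nlrp9b and -0.47 to -0.17 for Nlrp9c. In each range the lowest value is that without irradiated library 1 and the highest that without irradiated library 2, and the lone irradiated library was assumed to vary like the controls.

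Over all genes, 1 passed both limits, and 0 did with library size only, limma-voom and both TPM pseudocounts (586, 629, 372 and 409 at an unadjusted p under 0.05), 3 with no filter, 4 with DESeq2, 10 with the exact test and 7 with the replicate block. With 1 library left out, 16 to 84 did, the highest without irradiated library 1. The count of transcripts was 0 with edgeR (1306 at an unadjusted p under 0.05) and 248 with DESeq2, which gave NM_001362156.1 of Nlrp4a an adjusted p of 0.00431 (0.777 with edgeR), and isoform usage called 16 genes by Simes' method and 58 by the F test. The causes were not tested. Deviations of same-numbered libraries correlated at 0.0975, so the numbers were not shown to pair the libraries, and the block changed no call of a member. Per kilobase of reference transcript, Nlrp9b and Nlrp9c exchanged places in the order of levels. The leading transcript of Nlrp4a held 45.6% of TPM on average. The members had 740 or more counts in every library.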
